A study of Mus musculus with 2 samples.

Results

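Interferon-high macrophages are a small set of Adgre1-expressing cells in a mouse bone marrow macrophage culture that carry high levels of interferon-stimulated transcripts. They were selected on measured values: a cell counted as interferon-high when Rsad2, Ifit1, Ifit2 and Ifit3 together made up at least 10 of every 10000 of its unique molecular identifiers (UMIs, 1 per captured transcript), when it held at least 1 UMI of Adgre1, the gene of the macrophage surface protein F4/80, and when Retnlg, a neutrophil transcript, stayed under 10 per 10000. The rule found 188 cells among 14906 Adgre1 cells and 23101 cells kept in all. Of these, 117 were among 8277 Adgre1 cells of the Tamm-Horsfall protein library and 71 among 6629 Adgre1 cells of the vehicle library. The levels of the 4 summed genes, of Adgre1 and of Retnlg in these cells therefore follow from the choice and are given as a description.

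The cells came from the bone marrow of wild-type mice of the 129Sv strain and were grown to macrophages in medium with 10% FBS and 50 ng/ml M-CSF, the growth factor of the macrophage lineage. The cultures were given more medium on day 3 and a partial change of it on day 6. On day 7 one culture received 1 ug/ml of truncated Tamm-Horsfall protein (THP, also uromodulin, a protein of the kidney tubule), a form that does not polymerize, and the other received vehicle, 5% dextrose, both for 18 hours. The cells of both cultures were detached with an enzyme and freed of dead cells before droplet capture, and the study has 1 library per group, so that no difference below has a replicate check, no p-value is given, and the treatment cannot be told apart from the culture dish or the library.

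Type I interferons bind the receptor made of Ifnar1 and Ifnar2, and the kinases Jak1 and Tyk2 then activate factors such as Stat2, which with Irf9 is part of the complex ISGF3. ISGF3 binds the interferon-stimulated response element in the promoters of interferon-stimulated genes, whose products block viral RNA, degrade it, sense nucleic acids, tag proteins with Isg15 and recruit lymphocytes. In macrophages Toll-like receptors can start this program through Irf3 and induced interferon-beta, alongside the NF-kB program of cytokines such as Tnf and Il1b.

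The promoters of 6 genes that mark these cells are shown because all of them hold the response element. Rsad2, Ifit1 and Ifit3 were also used to select the cells. A match was taken as 2 copies of GAAA with 2 bases between them, on either strand, and stands in capitals below, and each line gives the 230 bases from 250 to 21 before the RefSeq start site, on the strand of the gene (GRCm38.p6).
Rsad2 (viperin, an enzyme that makes a chain-terminating nucleotide), chr12:26456473-26456702, minus strand: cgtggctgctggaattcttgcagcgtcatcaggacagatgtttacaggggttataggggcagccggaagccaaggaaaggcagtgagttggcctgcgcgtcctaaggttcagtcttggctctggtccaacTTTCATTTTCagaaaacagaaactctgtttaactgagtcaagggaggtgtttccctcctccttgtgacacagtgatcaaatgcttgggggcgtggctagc
Ifit1 (binds foreign RNA lacking cap methylation), chr19:34640639-34640868, plus strand: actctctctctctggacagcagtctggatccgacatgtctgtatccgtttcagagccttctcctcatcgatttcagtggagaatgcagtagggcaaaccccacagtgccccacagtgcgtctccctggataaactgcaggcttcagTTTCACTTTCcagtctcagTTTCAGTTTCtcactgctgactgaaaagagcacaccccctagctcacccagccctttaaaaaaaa
Ifit3 (a partner of Ifit1), chr19:34583279-34583508, plus strand: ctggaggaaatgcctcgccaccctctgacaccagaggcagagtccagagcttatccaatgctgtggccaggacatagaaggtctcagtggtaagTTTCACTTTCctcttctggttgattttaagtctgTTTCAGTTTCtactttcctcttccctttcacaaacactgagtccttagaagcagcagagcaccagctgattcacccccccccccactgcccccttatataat
Ifit3b (a close copy of Ifit3), chr19:34607707-34607936, plus strand: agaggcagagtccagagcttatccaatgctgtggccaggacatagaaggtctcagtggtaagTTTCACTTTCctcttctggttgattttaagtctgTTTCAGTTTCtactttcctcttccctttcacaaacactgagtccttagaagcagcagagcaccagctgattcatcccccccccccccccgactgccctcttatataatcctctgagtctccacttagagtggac
Ifit1bl1 (an Ifit1-like gene), chr19:34601989-34602218, minus strand: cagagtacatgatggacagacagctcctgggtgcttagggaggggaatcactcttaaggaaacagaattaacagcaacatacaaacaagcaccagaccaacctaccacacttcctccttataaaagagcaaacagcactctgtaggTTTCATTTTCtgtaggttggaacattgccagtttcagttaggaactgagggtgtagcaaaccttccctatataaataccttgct
Cxcl10 (a chemokine that draws Cxcr3-bearing lymphocytes), chr5:92348910-92349139, minus strand: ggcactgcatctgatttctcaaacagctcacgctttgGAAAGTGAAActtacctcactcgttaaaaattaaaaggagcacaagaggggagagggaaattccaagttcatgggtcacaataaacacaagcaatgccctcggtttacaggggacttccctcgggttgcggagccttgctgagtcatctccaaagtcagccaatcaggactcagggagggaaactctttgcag
The matches lay 120 bases before the start in Rsad2, 104 and 85 in Ifit1, 156 and 122 in Ifit3, 188 and 154 in Ifit3b, 104 in Ifit1bl1 and 213 in Cxcl10. Ifit1bl1 has another RefSeq start site, not shown, which had no match in the same stretch. Ifit3 and Ifit3b shared an identical run of 169 bases in these windows, so the 2 promoters are close copies as the 2 genes are.

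In windows of 300 bases (250 before the start and 50 after), 45 of the 118 promoters found for genes higher in interferon-high macrophages than in other Adgre1 cells held the element (38.1%). The share was 4.40% of the 6000 promoters of all genes compared and 3.99% of 27025 genes in the RefSeq promoter table. The gamma-activated site (TTC and GAA with 3 bases between them), the element of the interferon-gamma response, stood in 14.4% of the higher genes' promoters, 7.98% of the compared and 9.55% of all. A match is a description of letters, not a site shown to be bound. No window of Ifit2, Cmpk2, Oasl1, Tnfsf10, Isg20, Ifi209 or Slfn1 held the element, which says only that these letters are not in those windows. Of the 15 highest genes besides the selecting ones, 12 had a promoter and 6 of these held the element (50%). No promoter was found for Mx1, Iigp1 and Usp18.

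The 13193 and 11584 deposited barcodes of the THP and vehicle libraries were reduced to 12123 and 10978 by the minimum of 500 genes and 1000 UMIs and the maximum of 10% mitochondrial UMIs. The kept cells held 224825484 and 207662132 UMIs. The libraries shared 38 kept barcodes, none of them an interferon-high cell. Neutrophil-like cells with Retnlg at 10 or more per 10000 were present in both libraries, 718 and 1005 cells with median depths of 2659.5 and 2458 UMIs, and 23.8% and 17.9% of them held an Adgre1 UMI. Whether those UMIs come from free RNA was not tested, and their depth is far below that of the Adgre1 cells.

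Interferon-high macrophages were close to the rest in depth: the median was 19062 UMIs per cell with THP and 20332 with vehicle, against 19903 and 22185 in other Adgre1 cells. They held 2686094 and 1610418 UMIs in sum, and 3 UMIs, the limit that a count of 0 allows, correspond to 1.12 and 1.86 CPM (UMIs scaled to a sum of 1000000). The intervals given are exact 95% intervals and cover counting error only. They made up 1.41% (1.17 to 1.69) of the Adgre1 cells with THP and 1.07% (0.837 to 1.35) with vehicle, and the intervals overlap. With every cell thinned to 5000 UMIs, which left out 9 and 2 of them as too shallow, the shares were 1.46% (90 of 6170) and 1.36% (60 of 4414), so a difference in the share was not detectable. The same interferon sum was also reached by 0.895% and 0.658% of kept cells with no Adgre1 UMI, and by 1.95% and 2.39% of the Retnlg-high cells.

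The sum of the 4 genes had no gap at 10 per 10000. In the THP library 6143 Adgre1 cells held none of the 4 transcripts, 1463 lay under 1, 72 between 5 and 10, 60 between 10 and 20, 42 between 20 and 50 and 15 at 50 or more. In the vehicle library the same classes held 4703, 1392, 58, 32, 25 and 14 cells. By this sum, interferon-high macrophages are thus the upper range of a continuous, long-tailed distribution. Whether they form a separate group across other genes was not tested. Their own median was 19.4 per 10000 with THP (10.0 to 114) and 22.4 with vehicle (10.1 to 129). All 4 genes were seen in 93 of 117 cells and 64 of 71. Just inside the limit (10 to 12.5) lay 22 and 12 cells and just outside it (7.5 to 10) 28 and 17. Isg15 was nearly equal across the limit, at 5.14 inside and 5.03 outside per 10000 with THP and 5.13 and 4.93 with vehicle, whereas Cxcl10 was 17.1 and 9.62 with THP and 7.65 and 1.74 with vehicle.

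**Figure D1:**
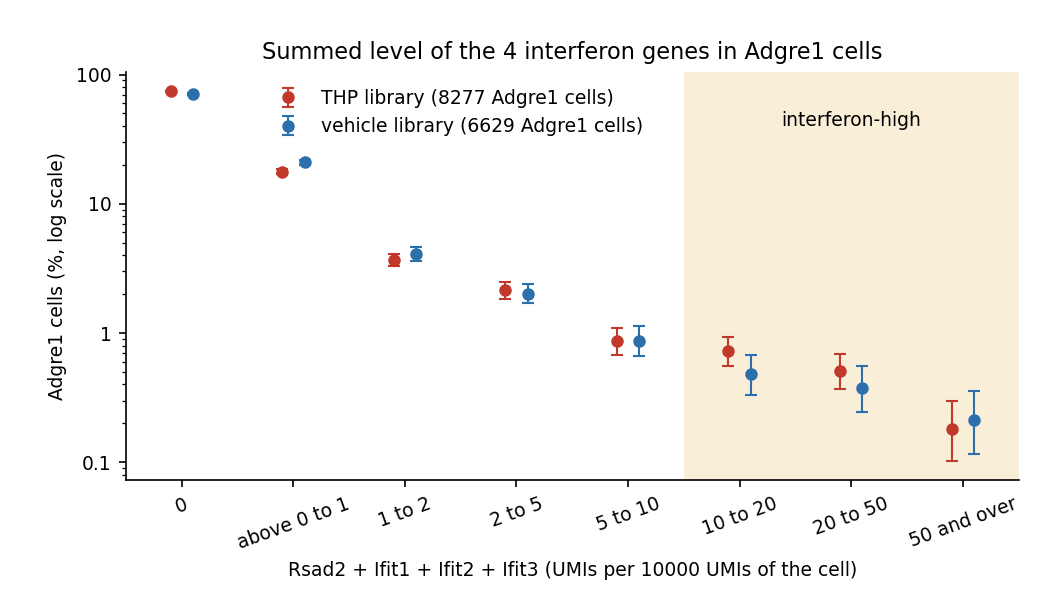
Percentage of Adgre1 cells (y, log scale) in each class of the summed level of Rsad2, Ifit1, Ifit2 and Ifit3 (x, UMIs per 10000) in the THP and vehicle libraries, with exact 95% binomial intervals. The share falls from class to class without a gap at the limit of 10.

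Macrophage markers were present, with Adgre1, 1 of the 12, required by the rule. None of the 12 macrophage markers was at 0 in either library, which also held for the 7 monocyte and 7 myeloid progenitor markers. The summed macrophage marker level per cell had a median of 39.8 per 10000 with THP and 24.6 with vehicle. In other Adgre1 cells it was 33.7 and 23.5. Csf1r, the receptor for M-CSF, stood at 274 and 284 CPM against 268 in the other Adgre1 cells of each library. All 6 erythroid markers were at 0, as were 6 of 7 B cell markers. The 7 plasmacytoid dendritic cell markers were higher in sum than in other Adgre1 cells, with cell medians of 5.85 and 5.14 per 10000 against 3.42 and 2.43, and 26 of 117 and 27 of 71 cells lay above the level that 95% of other Adgre1 cells stay under. Most of that sum was Bst2, tetherin, which is also an interferon-stimulated gene and stood at 541 and 435 CPM of 631 and 572.5 for the list, while Siglech, Ccr9 and Klk1 were at 0 in both libraries. The 9 conventional dendritic cell markers summed to 68.1 and 78.9 CPM against 69.1 and 100.4, with 3 of 117 and 5 of 71 cells above the 95% level and Clec9a at 0 in both, and Dpp4 was higher in the vehicle library alone, at 14.9 against 3.27 CPM (log2 1.90). Neutrophil and progenitor transcripts were present: 5 of 117 cells with THP and 0 of 71 with vehicle lay above the 95% level for the neutrophil markers, and 2 and 1 for the myeloid progenitor markers. For the monocyte markers it was 0 in both libraries. With vehicle 5 of 7 monocyte and 5 of 9 neutrophil markers were at least 2-fold below other Adgre1 cells (median log2 -1.43 and -1.67). With THP 0 of either list were (-0.69 and -0.37). Of 6 progenitor markers 5 were lower with THP and 2 with vehicle (-1.50 and -0.84). Retnlg, on the neutrophil list, was limited by the rule. No doublet caller was run, and an alternative without the deepest 5% of cells is given at the end.

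The question of how these cells differ from other Adgre1 cells was answered gene by gene on summed UMIs. A gene was compared when 1 of the 2 sets reached 10 CPM and 30 UMIs, and it counted as higher or lower when the ratio was at least 2-fold in the same direction in both libraries. Ratios are log2 of (CPM + 1), which understates the change of low genes, and are given for THP and then vehicle. Of 7497 genes besides the 4 summed ones and the gate genes, 150 were higher (2%) and 9 were lower (0.12%), while the median over all genes was -0.06 in each library. In the THP library alone 189 genes were higher and 28 lower, and in the vehicle library alone 239 and 97. Because the cells were selected on interferon-stimulated transcripts, the higher level of other transcripts of that program describes what accompanies the selection. Of the 150 higher genes 61 were on the lists of interferon-stimulated, interferon signalling or MHC genes, and 89 were on none.

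The selecting genes set the scale. Rsad2 stood at 1070 CPM with THP and 909 with vehicle, against 7.93 and 4.85 in other Adgre1 cells. Ifit1 was at 643 and 617 against 12.8 and 8.27. Ifit2, which binds AU-rich viral RNA, was at 220 and 471 against 3.62 and 7.50, and Ifit3 was at 428 and 797 against 6.42 and 6.94. The 2 genes of the family outside the rule followed: Ifit3b was at 108 and 193 CPM against 0.797 and 1.22 (log2 5.93 and 6.45), and Ifit1bl1 at 52.1 and 80.7 against 0.317 and 0.203 (5.33 and 6.09). The family lies in 1 cluster on chromosome 19 (GRCm38), Ifit2 at chr19:34550694-34576419, Ifit3 at chr19:34583531-34588731, Ifit3b at chr19:34607970-34613401 and Ifit1 at chr19:34640871-34650009. Ifit3 and Ifit3b are near-identical, as are several Oas, Gbp and Ifi200 genes and Ccl3 with Ccl4, so the split of UMIs between such copies is uncertain.

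Outside the Ifit family the highest genes were known interferon-stimulated genes. Cxcl10 was at 3124 CPM (3058 to 3192) with THP and 1485 (1426 to 1545) with vehicle (intervals for counting error), against 39.8 and 8.46 in other Adgre1 cells (log2 6.26 and 7.29). Cmpk2, a nucleotide kinase that neighbours Rsad2 on chromosome 12 and feeds its substrate, was at 197 and 237 CPM against 5.75 and 7.02 (4.88 and 4.89). Mx1, a GTPase that traps viral ribonucleoprotein, was at 164 and 196 against 6.43 and 8.83 (4.47 and 4.33). Isg15, the ubiquitin-like modifier, was at 954 and 810 against 83.9 and 50.4 (3.49 and 3.98), so it was already present in other Adgre1 cells. Usp18, which removes Isg15 and restrains the receptor, was at 164 and 245 against 12.8 and 12.7 (3.58 and 4.17).

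**Figure D2:**
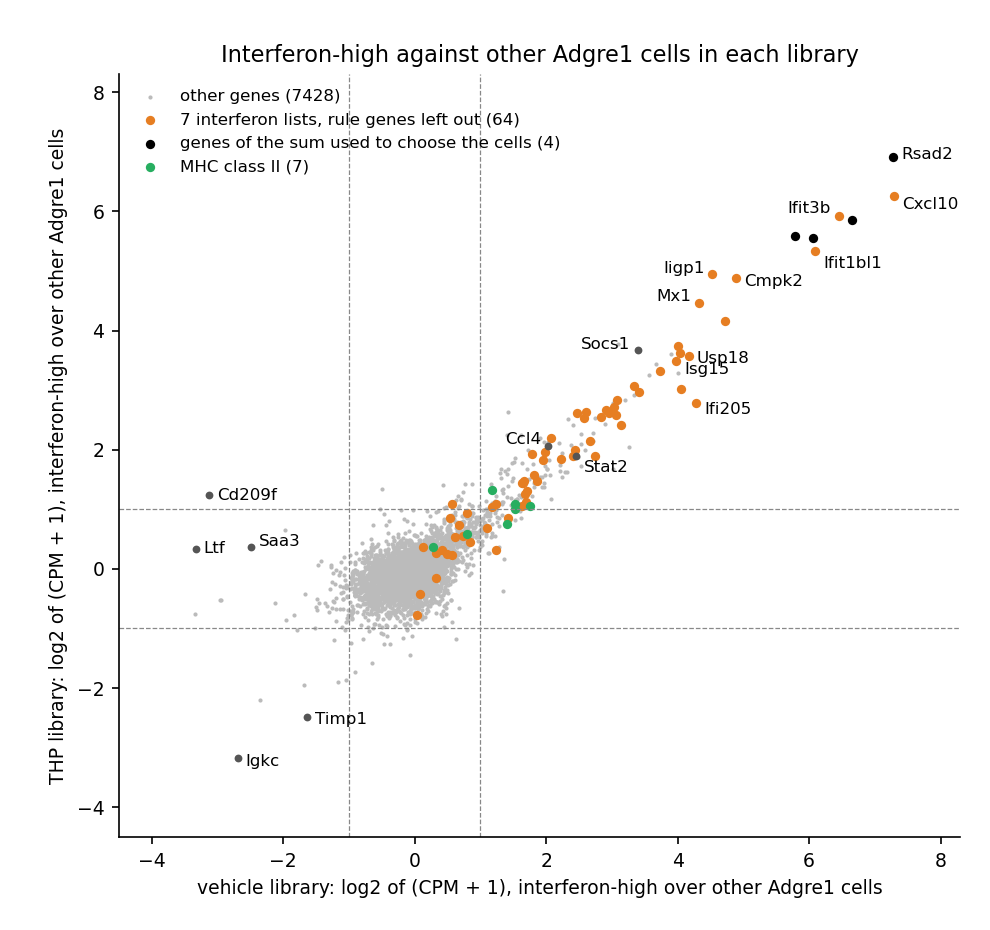
Log2 ratio of interferon-high over other Adgre1 cells in the THP library (y) against the same ratio in the vehicle library (x), 1 point per gene compared, with the genes that selected the cells and the gene lists marked. The 150 higher genes lie in the upper right and the 9 lower genes in the lower left, and the bulk lies around 0.

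By role, all 5 Ifit genes were higher, with the median of the smaller of each gene's 2 log2 ratios at 5.58, 3 of these 5 having been used to select the cells. Only 1 of the 5 reached the minimum in other Adgre1 cells in at least 1 library. The rest entered the comparison only through their level in interferon-high cells. Of the 14 interferon-induced GTPases 10 reached the minimum in both libraries, and all 10 were higher (median 2.78). Most of them did so only in interferon-high cells, so that they could enter the comparison only as higher genes: in other Adgre1 cells 4 of the 14 reached it in at least 1 library. Gbp5, which assembles on pathogen membranes, was at 55.8 and 69.6 CPM against 2.18 and 1.67 (log2 4.16 and 4.72), and Iigp1 at 93.8 and 80.1 against 2.06 and 2.50 (4.95 and 4.53). Of the antiviral effectors 11 of 17 were higher (median 1.31), the selecting gene Rsad2 among them, and of the Isg15 system 5 of 6 (2.04), including the ligase Herc6 at 87.9 and 186 CPM against 13.5 and 23.02 (2.62 and 2.96). In other Adgre1 cells 12 of the 18 antiviral effectors matched reached the minimum in at least 1 library. The other effectors could enter the comparison only through their level in interferon-high cells. Ifitm3, a membrane protein that blocks viral entry and is abundant in all Adgre1 cells, stayed within 2-fold at 3654 and 2766 CPM against 2936 and 2082 (0.32 and 0.41).

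Of the OAS family, enzymes and relatives that respond to double-stranded RNA, 5 of 7 were higher (median 1.45). In other Adgre1 cells 5 of the 7 reached the minimum in at least 1 library. The rest, Oasl1 among them, entered the comparison only through their level in interferon-high cells. Oasl1, which limits translation of Irf7, was far apart from the rest at 128 and 157 CPM against 8.70 and 8.79 (log2 3.74 and 4.01), while Oas3 was at 101 and 117 against 33.4 and 32.5 (1.57 and 1.82). Of the nucleic acid sensors 9 of 16 were higher (1.36). In other Adgre1 cells 14 of the 19 sensors matched reached the minimum in at least 1 library, and Ifi205 did not. The RNA sensor Ifih1 (MDA5) was at 82.3 and 151 CPM against 17.9 and 22.97 (2.14 and 2.66), and Ddx58 (RIG-I) at 130 and 214 against 35.4 and 44.7 (1.85 and 2.23). The DNA sensor family gene Ifi205 was at 16.4 and 77.0 against 1.53 and 3.01 (2.78 and 4.28).

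Among the interferon signalling genes 8 of 19 were higher (median 0.50). Irf7, the factor that amplifies interferon genes, was at 242 and 263 CPM against 65.3 and 46.2 (log2 1.87 and 2.48), and Stat2 at 72.6 and 143 against 18.7 and 25.3 (1.90 and 2.45). The feedback inhibitor Socs1 was at 59.2 and 41.0 against 3.71 and 2.98 (3.67 and 3.40). The receptor genes did not pass the limit, Ifnar1 at 67.8 and 122 CPM against 83.1 and 119 (-0.29 and 0.03) and Ifnar2 at 65.5 and 93.1 against 68.3 and 97.2 (-0.06 in both), nor did Irf9 (0.76 and 0.66), Irf3 (-0.12 and -0.53) or Irf8 (-0.15 and -0.27).

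Interferon transcripts themselves were almost not captured. Of 20 interferon genes 17 had no UMI in any kept cell of either library. Ifnb1, the gene of interferon-beta, had 1 UMI among the interferon-high cells of each library and 5 and 3 UMIs among all kept cells, and Ifng had 3 and 6 UMIs among all kept cells and 0 in interferon-high cells. The counts in interferon-high cells lie under the 3 UMIs that a count of 0 allows, so the level of interferon transcripts was not measurable at this depth.

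Antigen presentation was higher in part. Of 18 MHC class I presentation genes 3 were higher (median 0.47), namely Tap1, the peptide transporter, at 93.8 and 140 CPM against 41.2 and 47.0 (log2 1.17 and 1.56), the class I regulator Nlrc5 (1.37 and 1.94) and H2-T22 (1.08 and 1.47), while B2m was at 2279 and 1857 CPM against 1882 and 1379 (0.28 and 0.43). Of 7 MHC class II genes 4 were higher (1.01), with H2-Ab1 at 399 and 823 CPM against 187 and 285 (1.09 and 1.53). This rested on part of the cells: the median THP cell held 2.66 class II UMIs per 10000 against 2.08 in other Adgre1 cells, while the summed level was 26.5 against 14.5, and with vehicle the medians were 11.6 and 2.98 and the summed levels 59.7 and 22.01. Of the H2-Ab1 UMIs 51.6% with THP and 32.8% with vehicle were in 5 cells. The interferon-inducible ligands were higher in 5 of 7, with Ccl12, a monocyte chemokine, at 446 and 105 CPM against 71.8 and 18.1 (2.62 and 2.47) and Tnfsf10, the death ligand TRAIL, at 19.0 and 32.9 against 0.612 and 1.06 (3.63 and 4.04). Cd274, the checkpoint ligand PD-L1, and Il15, a lymphocyte cytokine, were the others besides Cxcl10, at 2.19 and 2.08 and at 1.93 and 1.78. Of the 11 interferon-inducible chemokines and ligands matched, 5 reached the minimum in other Adgre1 cells in at least 1 library. The rest could enter the comparison only through their level in interferon-high cells.

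Of the NF-kB feedback and response list 2 of 22 genes were higher (median 0.13). Of the 19 inflammatory cytokines and chemokines 5 reached the minimum in both libraries and 1 was higher (median 0.47), which was Ccl4, at 1033 and 145 CPM against 247 and 34.7 (log2 2.06 and 2.03). In the THP library alone 9 reached it, 4 were higher and 1 was lower (median 0.93). None of 18 lysosome and lipid genes, 6 alternative activation genes, 8 complement genes, 13 early response genes, 17 S phase genes (-0.09) or 16 G2 and M phase genes (-0.19) was higher. Over all genes compared 2% were higher, so a count of 0 in lists this short is near that share. Cell cycle genes leaned lower, more so with vehicle. In the vehicle library all 17 S phase genes lay below 0 (median -0.29), 1 of them past the limit. So did 15 of 16 G2 and M phase genes (-0.58), 2 of them past it. In the THP library 12 and 15 lay below 0 (-0.11 and -0.19), with 0 past the limit.

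The 89 higher genes on no interferon, signalling or MHC list include members of other lists, such as Ccl4 above. Among the 89, Isg20, an RNA exonuclease, was at 74.8 and 87.6 CPM against 5.20 and 4.92 (log2 3.61 and 3.90) and Ifi209, a DNA sensor family gene, at 90.5 and 152 against 7.401 and 11.1 (3.44 and 3.67). Acod1, the enzyme that makes itaconate, was at 230 and 41.0 against 71.6 and 4.23 (1.67 and 3.01), and Fcgr1, the high-affinity Fc gamma receptor, at 281 and 291 against 125 and 100 (1.16 and 1.53). Genes picked from these 89 after their values were seen are Ifi44 at 283 and 398 CPM against 57.6 and 59.8 (2.28 and 2.72), Ms4a4c at 175 and 204 against 24.7 and 24.6 (2.78 and 3.01) and Cd69, an early activation antigen, at 91.6 and 75.1 against 16.2 and 9.31 (2.43 and 2.89). Kdr, the gene of VEGF receptor 2 and an endothelial marker, was also higher at 24.6 and 53.4 CPM against 4.97 and 8.41 (2.10 and 2.53), while the endothelial markers Emcn and Esam were at 0.

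The 9 lower genes included Igkc, the immunoglobulin kappa constant gene, at 26.4 and 21.1 CPM against 248 and 142 (log2 -3.18 and -2.69). Acta2, smooth muscle actin, was at 1.49 and 1.24 against 10.4 and 10.4 (-2.20 and -2.35), and Ctsg, a granule protease of immature myeloid cells, at 51.0 and 158 against 189 and 327 (-1.87 and -1.04). The other lower genes were Timp1, Rgcc, Ms4a3, Fcnb, Bora and Ramp1. Ctsg and Ms4a3 turned to higher values in the vehicle library, 0.70 and 0.45, when at least 3 Adgre1 UMIs were required, so their direction rests on the cells with the fewest Adgre1 UMIs.

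The level of other interferon-stimulated genes followed the sum across all Adgre1 cells, from cells with none of the 4 transcripts to those at 50 or more per 10000. Isg15 went from 55.1 to 2398 CPM with THP and from 29.6 to 1061 with vehicle, and Cmpk2 from 3.24 to 706 and from 4.19 to 637. In the THP library Cxcl10 was higher in each class than in the one below: 20.8, 30.04, 72.5, 276, 873, 1815, 3721 and 9850 CPM. In the vehicle library it was 2.74, 3.95, 17.8, 190, 193, 715, 1762 and 3458 CPM, so each class held less Cxcl10 than its counterpart with THP. Irf7 went from 55.1 to 749 CPM with THP and from 33.8 to 300.1 with vehicle. Csf1r had no such slope, at 263 CPM in the lowest and 200.2 in the highest THP class. Ccl5 was at 3.96 CPM in the THP class of 10 to 20 but at 244.5 and 1073 in the 2 classes above it, against 1.22, 3.66 and 49.3 with vehicle. The classes share their libraries, and no correlation was computed.

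**Figure D3:**
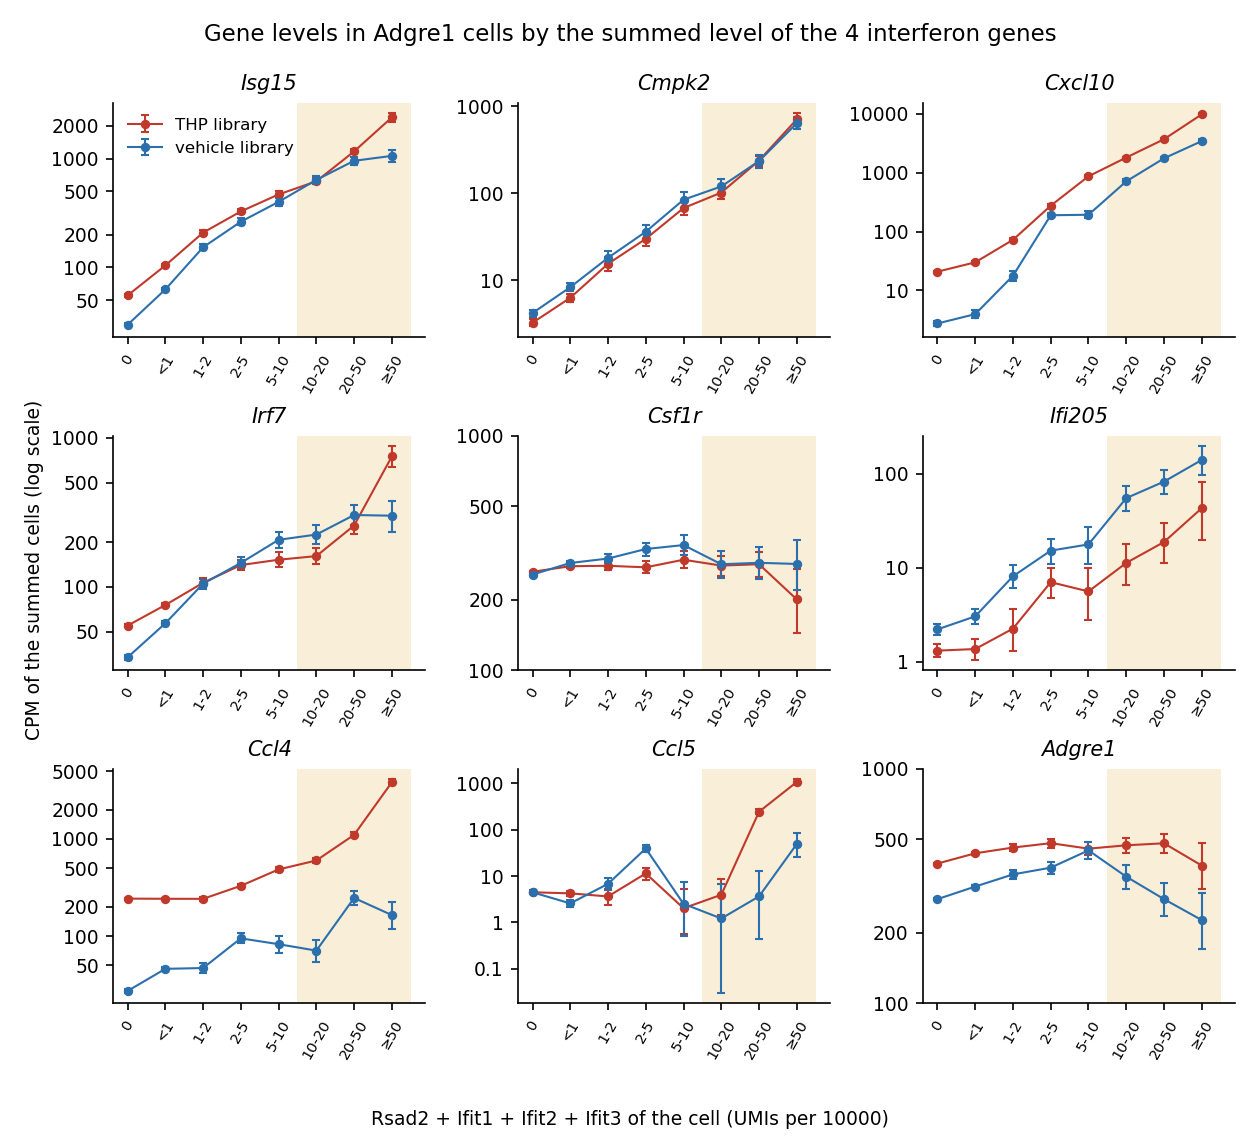
Level of selected genes (y, CPM, log scale) in Adgre1 cells grouped by the summed level of Rsad2, Ifit1, Ifit2 and Ifit3 (x, UMIs per 10000) in each library, with exact 95% counting intervals. Isg15, Cmpk2 and Cxcl10 climb from class to class in both libraries, Irf7 and Ifi205 climb with single steps down, Cxcl10 lies higher with THP in each class, and Csf1r and Adgre1, a selecting gene, show no such climb.

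The second comparison set interferon-high macrophages of the THP culture against those of the vehicle culture. Of 7173 genes 126 were higher with THP (1.76%) and 418 lower (5.83%), with a median log2 ratio of -0.13. The surplus of lower genes depended on scaling: with TMM factors 231 were higher and 182 lower (median 0.11), and with RLE factors 206 and 210 (0.07). In other Adgre1 cells 73 of 7931 genes were higher (0.92%) and 223 lower (2.81%), with a median of -0.17, and 129 and 59 with TMM or 110 and 79 with RLE. Of the 126 higher genes 59 were among the 73, and of the 418 lower genes 128 were among the 223. The ratio also fell with transcript length, from a median of 0.15 in the shortest of 5 length classes to -0.49 in the longest, and likewise in other Adgre1 cells, from 0.10 to -0.50. Its part in single ratios was not tested, and values with this trend subtracted are given where they end a call.

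The core interferon-stimulated genes were not higher with THP. Rsad2 was at 1070 CPM with THP and 909 with vehicle (log2 0.24), Ifit1 at 643 and 617 (0.06), Ifit3 at 428 and 797 (-0.89) and Ifit2 at 220 and 471 (-1.09), within a sum that both sets had to pass. Isg15 was at 954 and 810 CPM (0.24) and Irf7 at 242 and 263 (-0.12). Without the 4 selecting genes, the 7 interferon lists, chemokines and ligands included, had 5 of 66 genes higher and 10 lower (median -0.45). Over the 6 lists of interferon-stimulated genes other than chemokines and ligands, 0 of 61 genes were higher and 11 were lower. Of these 61, 52 lay below 0, with a median of -0.47. The 61 include the 4 selecting genes, and the 11 include Ifit2. With TMM scaling 6 were lower and the median was -0.22, and with RLE 6 and -0.26, below the median of all genes under each scaling. The lower genes included Ifi205 at 16.4 and 77.0 CPM (-2.17), Tgtp2, a GTPase, at 10.8 and 31.7 (-1.47), and Gbp4 at 5.96 and 20.5 (-1.63), whose calls held under both scalings. Ifit2, Oas1a, Herc6, Gbp7 and Parp9, between -1.17 and -1.06, came within 2-fold under both, for example Parp9 at -0.84 and -0.88.

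The interferon-inducible chemokines and ligands went the other way, with 5 of 9 higher, 0 lower and a median of 1.07 (1.33 with TMM). Among the higher ones, Cxcl9 and Ccl5 were under the minimum with vehicle (0 and 15 UMIs). They entered the comparison only through their level with THP. Cxcl10 was at 3124 CPM with THP and 1485 with vehicle, a ratio of 2.10 (2.01 to 2.20, counting error only). The log2 ratio of 1.07 lay just past the limit and came to 0.98 with the length trend subtracted, and in other Adgre1 cells it was 2.11. Cell by cell, 94.0% of interferon-high cells with THP and 63.4% with vehicle held a Cxcl10 UMI, or 87.96% and 58.0% thinned to 5000 UMIs. The same share was 5.99% and 0.995% in Retnlg-high cells and 22.9% and 5.55% in other Adgre1 cells. The median cell held 20.5 Cxcl10 UMIs per 10000 with THP (quartiles 8.41 and 44.9) and 3.34 with vehicle (0 and 24.3), and 84 of 117 cells against 24 of 71 reached 10 per 10000. No Cxcl10 UMI was captured in 26 of the 71 vehicle cells and in 7 of the 117 THP cells, while Isg15 was detected in 98.3% and 98.6% (90.7% and 91.3% thinned, and 20.6% and 12.9% of Retnlg-high cells).

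Ccl12 was at 446 and 105 CPM (log2 2.08, against 1.93 in other Adgre1 cells) and Ccl7, also a monocyte chemokine, had a log2 ratio of 1.27 (1.84 in other Adgre1 cells, and 0.85 here with the length trend subtracted). Ccl2 did not pass the limit, at 1439 and 1029 CPM (0.48). Cxcl9, a Cxcr3 ligand linked to interferon-gamma, had 56 UMIs with THP and 0 with vehicle, at least 11.2-fold higher against a floor of 3 UMIs, but 96.4% of these UMIs came from 5 cells. In other Adgre1 cells it was under the minimum, at 0.385 and 0.640 CPM (-0.24).

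Ccl5, a T cell and monocyte chemokine, also rested on few cells. It had 466 UMIs with THP and 15 with vehicle, 174 and 9.31 CPM (log2 4.08, against -0.04 in other Adgre1 cells, where it was under the minimum at 4.53 and 4.67 CPM), and 91.9% of the THP UMIs were in 5 cells. Of the 117 THP cells 7 held at least 10 Ccl5 UMIs and 458 of the 466, and no vehicle cell reached that number, a limit chosen after the values were seen. These 7 cells had Cxcl10 at 5738 CPM against 2846 in the other 110, Ifit3 at 874 against 381 and Gbp2 at 182 against 62.6. All 7 held Adgre1 UMIs, as the rule required, at 267 CPM against 489. Csf1r was at 135 against 289 CPM, C1qa at 460 against 580 and H2-Ab1 at 650 against 372. Flt3, a dendritic cell receptor, was at 0 in both, while Ccr7, also on the dendritic cell list, had 1 UMI against 0. Whether the 7 cells are of another type was not tested.

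**Figure D4:**
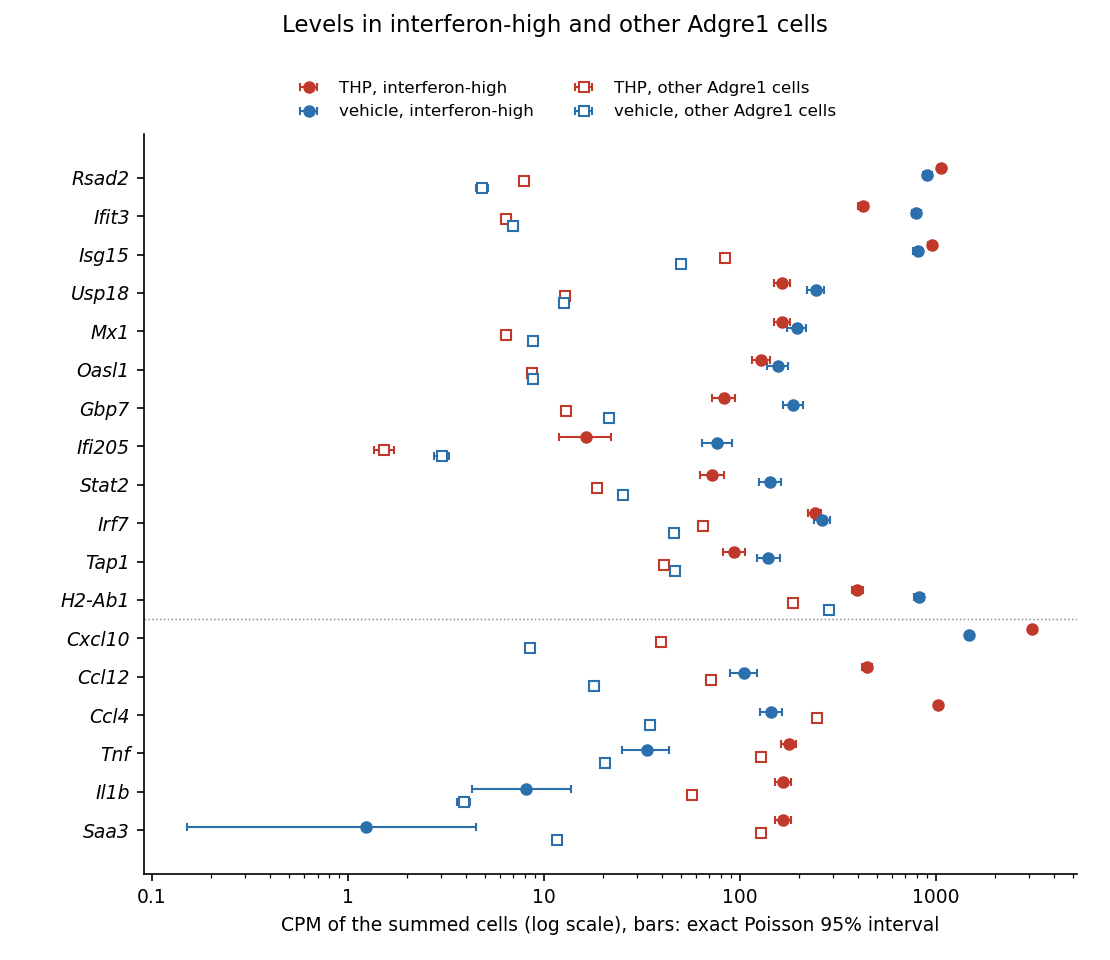
Levels (x, CPM, log scale) of 18 genes (y) in interferon-high and other Adgre1 cells of the THP and vehicle libraries, with exact 95% Poisson intervals. In interferon-high cells Rsad2 and Isg15 lie close together in the 2 libraries, Ifi205, Gbp7 and H2-Ab1 lie lower with THP, and the 6 genes under the dotted line lie higher with THP.

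Inflammatory genes were higher with THP in interferon-high cells as in other Adgre1 cells. Of the 19 inflammatory cytokines and chemokines 7 reached the minimum in at least 1 library, and 6 of these were higher (median 2.83). Of 24 NF-kB feedback and response genes 17 were higher (median 1.48, or 22 and 21 genes with TMM and RLE). Il1b, Cxcl1 and, on the NF-kB list, Saa3 were under the minimum with vehicle. These 3 genes entered the comparison only through their level with THP. Il1b was at 166 and 8.07 CPM, from 446 and 13 UMIs (log2 4.20, against 3.57 in other Adgre1 cells). It was detected in 43 of the 110 THP cells with fewer than 10 Ccl5 UMIs, in 3 of the other 7 and in 6 of 71 vehicle cells. Summed over the 19 inflammatory genes, the median cell held 16.5 UMIs per 10000 with THP and 1.88 with vehicle. The highest THP cell held 1980. Tnf was at 178 and 33.5 (2.37 and 2.58), and the neutrophil and macrophage chemokines Cxcl1 (4.38 and 3.03, from 157 and 3 UMIs), Ccl3 (3.11 and 2.53), Ccl4 (2.83 and 2.80) and Cxcl2 (2.21 and 2.22) were higher too. The difference between the 2 sets of cells was not tested. Among the feedback genes, Nfkbia, the inhibitor that holds NF-kB in the cytoplasm, was at 316 and 101 CPM (1.64 and 1.54), Nfkbiz at 91.2 and 17.4 (2.33 and 2.18), Gpr84, a fatty acid receptor, at 181 and 31.7 (2.47 and 2.39) and Sod2, the mitochondrial superoxide dismutase, at 558 and 168 (1.73 and 1.54). Acod1 was at 230 and 41.0 CPM (2.46, against 3.80 in other Adgre1 cells) and Socs3, a feedback inhibitor of Stat3, at 1.73 (2.29).

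The largest ratio was that of Saa3, an acute-phase gene (chr7:46711998-46715700), with 445 UMIs with THP and 2 with vehicle, 166 and 1.24 CPM. The ratio of CPM was 133 (36.7 to 1105) and the log2 ratio 6.22, against 3.36 in other Adgre1 cells. Other high ratios were carried by few cells: of the UMIs with THP the top 5 cells held 91.4% for Cd209f, a C-type lectin (128 and 1 UMIs, ratio 76.7, 13.5 to 3054), 100% for Cd209g (35 and 0 UMIs, at least 7.00-fold higher), 91.9% for the neutrophil granule gene Ltf and 78.9% for Lcn2. Marco, a scavenger receptor, had 426 and 25 UMIs (3.27, against 0.64 in other Adgre1 cells), with 55.6% in 5 cells. Beside these, 14 of 117 THP cells and 3 of 71 vehicle cells lay above the 95% level of other Adgre1 cells for the Vsig4 macrophage markers, and 5 and 0 for the neutrophil markers, whose summed level was 4848 and 2527 CPM. Their part in the ratios was not tested.

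MHC class II genes were lower with THP in 5 of 7 (median -1.05). H2-Ab1 was at 399 and 823 CPM (log2 -1.04), H2-Aa at 412 and 913 (-1.15), H2-Eb1 at 347 and 894 (-1.36), the invariant chain Cd74 at 1313 and 3030 (-1.21) and the class II transactivator Ciita at 17.1 and 36.6 (-1.05). Only 1 of the 7 stayed lower under TMM or RLE (medians -0.81 and -0.85), and with at least 3 Adgre1 UMIs H2-Ab1 came to -0.48, H2-Aa to -0.51 and Cd74 to -0.66. MHC class I presentation had 0 of 18 genes past the limit in either direction, and its median changed sign with scaling, from -0.08 to 0.17 with TMM.

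The lowest ratios mostly belonged to genes under 100 CPM. Cdkn1c, a cell cycle inhibitor, had 8 UMIs with THP and 58 with vehicle (log2 -3.22, and -0.00 in other Adgre1 cells, where it was under the minimum), with 91.4% of the vehicle UMIs in 5 cells. Myb, a progenitor transcription factor, was at 3.35 and 20.5 CPM (-2.30, against -1.37), Slc7a2, an arginine transporter, at 3.35 and 18.6 (-2.17, against -0.44 at a level under the minimum), Nedd9 at 4.10 and 23.6 (-2.27, against -1.29) and Cytip at 14.9 and 66.4 (-2.09, against -1.71). All 6 myeloid progenitor markers compared were lower, with a median of -1.58 and summed levels of 483 and 1373 CPM, and 5 of them turned to values above 0 when the sum of the 4 interferon genes had to reach 20 per 10000. Of the receptors that start the program, Tlr4 was at 10.4 and 34.2 CPM (-1.62, against -1.14 in other Adgre1 cells).

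**Figure D5:**
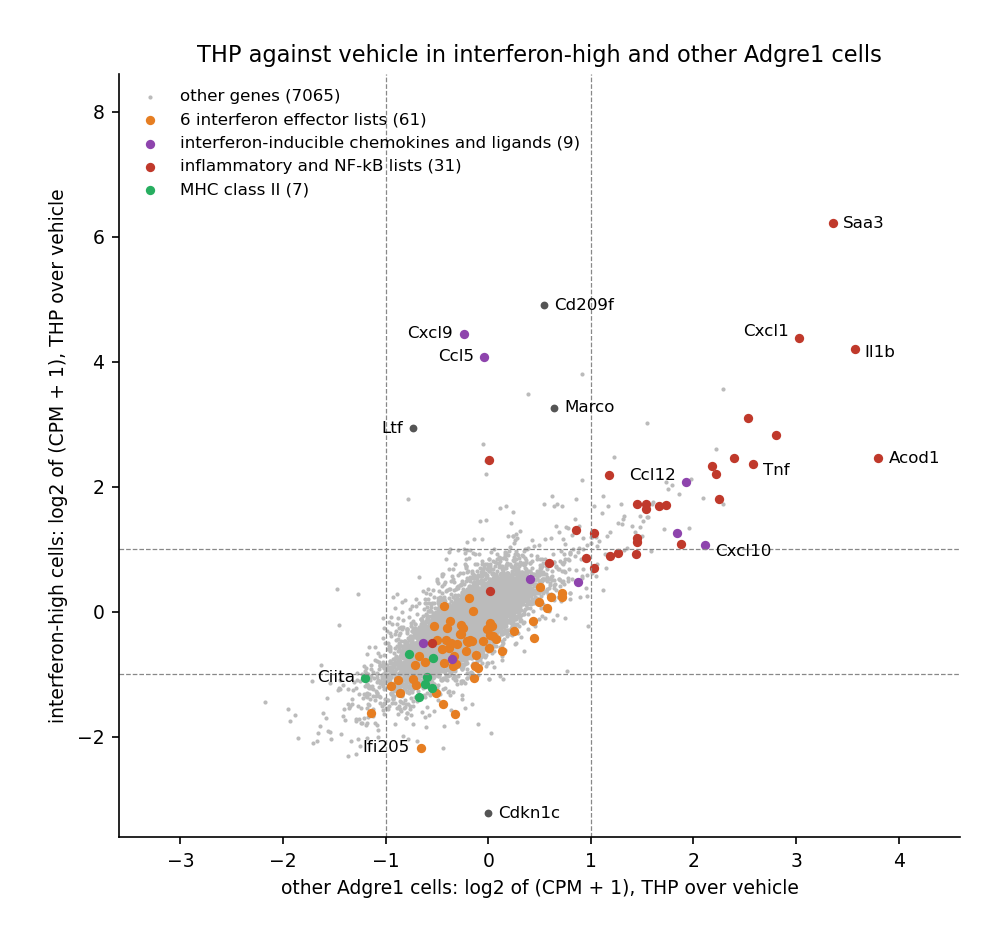
Log2 ratio of THP over vehicle in interferon-high macrophages (y) against the same ratio in other Adgre1 cells (x), 1 point per gene compared in interferon-high cells, with gene lists marked. Inflammatory and NF-kB genes lie to the upper right, most interferon-stimulated genes lie near or below 0, and Cd209f, Ccl5 and Cxcl9 lie high on the y axis, Ccl5 and Cxcl9 having been under the minimum of 10 CPM in other Adgre1 cells.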

How the data were processed

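The authors deposited 1 UMI count matrix per library (31053 genes); per the file headers the matrices are Matrix Market files written by software version 3.1.0, and per the submitters' processing notes Cell Ranger, STAR and bcl2fastq were used with mm10. The counts are not normalized. No source used here states the strand setting of the counting. The members and gene lists were chosen with earlier results of these data known. Cells were filtered as the report states, the UMIs of interferon-high and other Adgre1 cells were summed per library and scaled to CPM of each sum, and ratios were taken as log2(CPM + 1). With 1 library per group no test was run: a gene counted as higher or lower at 10 CPM and 30 UMIs in 1 set and a 2-fold ratio. Exact Poisson, conditional and Clopper-Pearson 95% intervals cover counting error only, since cells are not replicates. Named were the selecting genes, the 12 highest and 12 lowest genes with THP, the 15 highest and 10 lowest against other Adgre1 cells, up to 5 genes of each list in each comparison, all interferon signalling genes and the 10 genes whose THP ratio differed most between the cell sets. There were 19 pathway and 16 marker lists, and 4 of their genes were not matched in the files. Rows that share a symbol (35 symbols) were kept apart. Promoters came from RefSeq (GRCm38.p6) and gene coordinates from the GRCm38 annotation, matched by gene ID for 30934 genes. Alternatives were TMM and RLE factors (edgeR 4.0.16, R 4.3.3), other minimums, folds, pseudocounts, gates, cell weights and depths, and, chosen after seeing the data, a length trend and a counting interval. The scripts (Python 3.11.15, numpy 2.4.6, scipy 1.17.1, pandas 2.3.3, matplotlib 3.10.9) were tested on simulated data. Results for some genes are not reported here.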

Additional observations from a re-analysis of the deposited data

Results flagged for a closer look

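Cd209f, a C-type lectin of resident macrophages, went in opposite directions in the 2 libraries when interferon-high macrophages were set against other Adgre1 cells. The log2 ratio was 1.24 in the THP library (47.7 against 19.6 CPM) and -3.13 in the vehicle library (0.621 against 13.2 CPM, from 1 UMI in the interferon-high cells). The difference was not tested. In the THP library 91.4% of the 128 Cd209f UMIs were in 5 cells.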

How the results depend on the processing

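With TMM and RLE factors the genes higher with THP in interferon-high macrophages numbered 231 and 206 in place of 126 and those lower 182 and 210 in place of 418; in other Adgre1 cells 129 and 110 in place of 73 were higher and 59 and 79 in place of 223 lower. The genes lower in interferon-high than in other Adgre1 cells were 5 under both in place of 9, and the median over the 7 interferon lists was -0.20 and -0.24 in place of -0.45. Without a minimum level 397 genes were higher and 1220 lower with THP in interferon-high cells and 81 lower than in other Adgre1 cells; with 30 CPM these were 82, 268 and 4, and 127 genes were lower in other Adgre1 cells. At 1.5-fold the counts were 379 higher and 1373 lower with THP, 180 and 1302 in other Adgre1 cells, and 277 higher and 76 lower against other Adgre1 cells; at 3-fold they were 57, 61, 31, 15, 81 and 4. A pseudocount of 5 CPM gave 254 lower genes with THP and 93 in other Adgre1 cells. Subtracting the length trend, chosen after seeing the data, gave 275 and 117. The genes lower than in other Adgre1 cells were 25 with equal weight per cell and 14 without the top 5% of cells by UMIs. An interferon sum of 20 per 10000 gave 269 lower genes with THP, 28 lower than in other Adgre1 cells, and shares of 0.689% and 0.588%, and turned 5 progenitor genes to higher with THP: Prtn3 0.54, Elane 1.10, Ctsg 1.24, Mpo 1.55 and Ms4a3 0.74. A sum of 5 gave shares of 2.28% and 1.95% and Fn1 at -0.16 with THP. At least 3 Adgre1 UMIs gave 3 genes lower than in other Adgre1 cells, a list median of -0.31, and Ctsg at 0.70 and Ms4a3 at 0.45 in the vehicle library. Thinning to 5000 UMIs moved the vehicle share to 1.36%. Of 125 alternatives for counts, shares and the list median 79 stayed close to the value reported and 46 moved; of those for named genes 4013 stayed, 2791 moved and 8 reversed. No paired analysis was possible because each group has 1 library. For the same reason no replicate could be left out. In the interferon-high sums depth limits genes under about 10 CPM, which there stand on about 30 UMIs or fewer; the sums of other Adgre1 cells are far deeper.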
